A study of Homo sapiens with 16 samples.

Results

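The genes of glycolysis and of the response to low oxygen were described as 1 set of 38 genes on the arrays of a bronchial epithelial cell line with and without an exon-skipping form of the receptor MET. The set was a list of names: a probe belonged to it when the gene name given with the probe equalled one of the 38 names. No measured value decided which probes matched, but the names were chosen with earlier results of these data known. The shares of the set given below are therefore descriptions. 37 of the 38 genes had a probe of that name, of 42665 gene names with a probe in all, and 35 genes, of 26372, had a probe that could be tested. CA9 and CA12, carbonic anhydrases that buffer the pH of hypoxic cells, were not well above background on any of the 16 arrays, and ALDOA was not analysed here. The 37 genes had 50 probes, 47 of them tested, and 11 genes had more than 1 tested probe.

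Glycolysis splits glucose into pyruvate, and lactate dehydrogenase then turns pyruvate into lactate when mitochondria do not take it up. Many of its enzymes and glucose transporters are targets of the hypoxia-inducible factors (HIF), which pair an alpha subunit (HIF1A or EPAS1) with ARNT. In cells with enough oxygen the prolyl hydroxylases of the EGLN family mark the alpha subunits for breakdown through VHL, so HIF activity is set largely at the protein level, which an array of transcripts does not measure. EGLN3, BNIP3, NDRG1, ADM and other targets are read as transcripts of the HIF response, and several of them also answer to other stress and growth factor signals. No low-oxygen treatment is named in the labels.

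The cells were 16HBE, human bronchial epithelial cells immortalised with the SV40 large T antigen. 16HBE-WT carries MET as in the parental line, and 16HBE-ex14 is 1 CRISPR/Cas9-edited clone whose MET transcript lacks exon 14, so the genotype and the clone cannot be told apart. MET is the receptor of hepatocyte growth factor (HGF). Cells of all 4 groups were kept for 2 h without serum, and the 16HBE-WT+HGF and 16HBE-ex14+HGF groups then received 20 ng/ml HGF for 24 h. Each group had 4 arrays, each hybridised with Cy3-labelled RNA of 1 sample. Replicates 1 and 2 of every group lay on slide 1 and replicates 3 and 4 on slide 2. The study's methods give the replicates as experiments 1 week apart, but the labels do not tie an array to a week, so p-values measure the spread between these samples.

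Levels are log2 signals relative to the 75th percentile of the same array, so a level of 0 lies at that percentile, and the levels of different genes come from different probes and were not set against each other. Between 49 and 60.3% of probes were well above background on an array. Differences count as called here when the adjusted p was below 0.05 and the fold change above 1.5. The MET transcript was at 4.98 in 16HBE-WT against 5.11 in 16HBE-ex14, and with HGF at 5.01 against 5.18, on a probe (chr7:116438290-116438349, hg19) that was not matched to exon 14 and so does not check the genotype. All 10 epithelial markers were well above background on every array, with a summed level of 1820 to 2250 times the percentile. The summed level of the 4 basal airway markers, led by the keratin KRT5, was 8.29 to 12 for 16HBE-WT, 6.07 to 8.91 for 16HBE-WT+HGF, 2.04 to 2.62 for 16HBE-ex14 and 0.923 to 1.02 for 16HBE-ex14+HGF. The sum is carried by KRT5 (2.64, 2.01, 0.06 and -2.25 in the same order) and KRT14 (1.88, 1.38, 0.14 and -0.83), which were lower in the clone, while TP63 (-3.79 to -3.36) and NGFR (-3.88 to -3.50) differed little. The part of these keratins in the results was not tested. Of 5 secretory or ciliated markers 1 (MUC5B) was never above background, and their sum ran from 29.3 to 38.9. That sum is carried by the tubulin TUBB4B (4.95 to 5.19). SCGB1A1 (-1.54 to -1.34), MUC5AC (-3.68 to -3.22) and FOXJ1 (-4.54 to -3.79, above background on 8 arrays) were low. Of 6 fibroblast markers, COL1A2, COL3A1 and DCN were at background on all arrays, COL1A1 and PDGFRB were well above it on all 16, and LUM was above it on 8, with means of -2.93 in 16HBE-WT and -6.59 in 16HBE-ex14. The sum of the fibroblast markers was 0.553 to 1.05 in 16HBE-WT and 0.327 to 0.511 in 16HBE-ex14, and its part in the results was not tested. Of 3 endothelial markers, PECAM1 was at background on all arrays, and CDH5 and VWF were well above it on all 16. The leukocyte markers summed to 0.644 to 1.27. The arrays measure pooled RNA of many cells, where fewer cells with a transcript and less of it per cell cannot be told apart.

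Without HGF, 10 of the 35 tested genes differed between 16HBE-ex14 and 16HBE-WT, 28.6% of the set against 9.26% of all 26372 genes. NDRG1, EGLN3, PFKFB4, HK2, ADM and ANKRD37 were lower in 16HBE-ex14, which is 17.1% of the set against 4.78% of all genes. ALDOC, DDIT4, HIF1A and ENO2 were higher, 11.4% against 4.48%. All 10 genes had no overlap between the 4 arrays of each genotype, as had 22 of the 35 members and 21.1% of all genes. By adjusted p alone, 20 of the 35 members passed, 7 higher and 13 lower, where 18.2% of all genes did.

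In the presence of HGF, 6 of the 35 genes differed between the genotypes, 17.1% of the set against 10.7% of all genes. EGLN3, NDRG1, ADM, PFKFB4 and LDHA were lower in 16HBE-ex14+HGF, 14.3% against 5.29%, and HIF1A alone was higher, 2.86% against 5.36%. That balance of 5 lower and 1 higher became 2 and 2 with normexp background correction and 4 and 3 with scaling to the spike-in probes. Of the 35 members, 14 did not overlap between the genotypes, among them 5 of the 6 called, where 24.1% of all genes did not. The 5 genes called in both genotype comparisons were EGLN3, NDRG1, ADM and PFKFB4 on the lower side and HIF1A on the higher side. 33 of the 35 members had the same sign in both. The comparisons share no array, but both set the same clone against the same 16HBE-WT line. The share of all genes with the same sign is not given here, so this count is not a result about the members. All 17 called differences of the members kept their sign in every alternative computed. 8 of the 17 stayed called in every alternative that used both slides and in every fit with 1 array left out. They were HK2, PFKFB4 and DDIT4 without HGF, ADM with HGF, and NDRG1 and HIF1A in both comparisons.

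**Figure D1:**
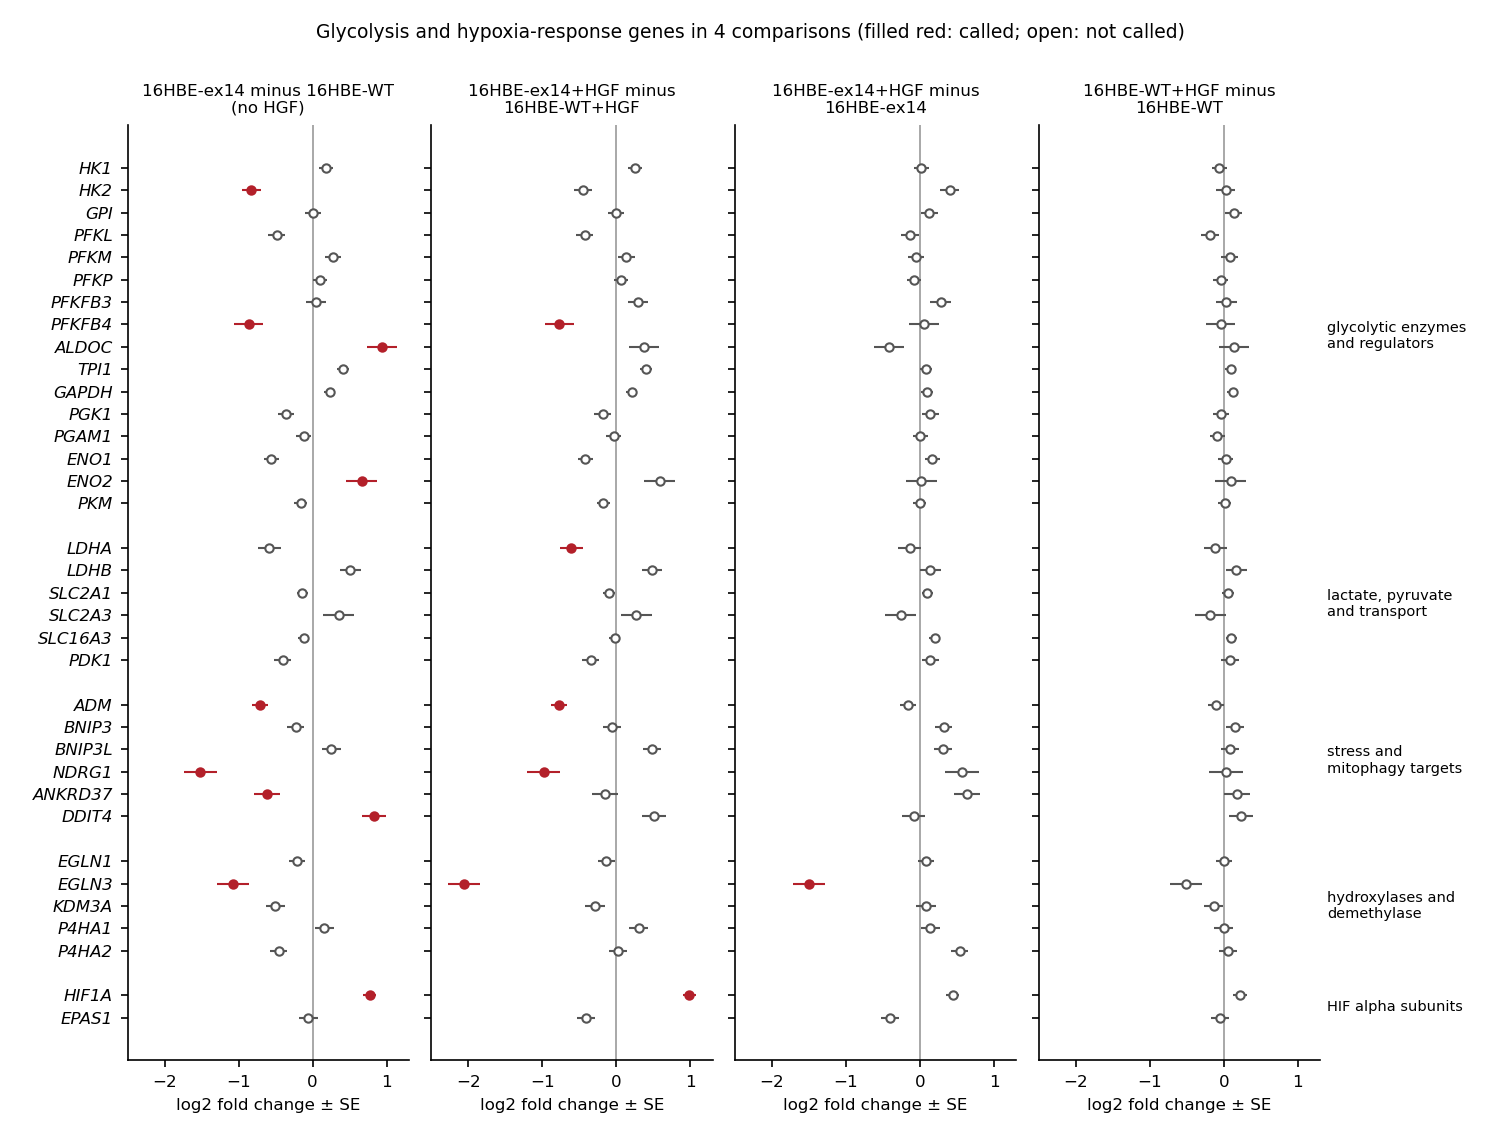
Log2 fold change (horizontal axis, with its standard error) of the 35 tested genes in 4 comparisons, grouped by role, with red filled points for called differences. Called genes appear in the panels of the genotype comparisons, 10 without HGF and 6 with HGF, while HGF gave 0 in 16HBE-WT and 1 (EGLN3) in 16HBE-ex14.

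Among the glycolytic enzymes and their regulators, 4 of 16 tested genes were called without HGF, HK2 and PFKFB4 lower and ALDOC and ENO2 higher in 16HBE-ex14. The median log2 difference of the 16 genes was 0.03, against -0.02 over all genes. The called enzymes thus lay on both sides.

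HK2 is the inducible hexokinase that traps glucose in the cell as glucose-6-phosphate. Its probe (chr2:75120331-75120390, hg19) read 2.85, 3.16, 3.30 and 3.08 in 16HBE-WT and 2.19, 2.20, 2.42 and 2.27 in 16HBE-ex14. It read 2.94, 3.01, 3.36 and 3.17 in 16HBE-WT+HGF and 2.68, 2.39, 2.84 and 2.78 in 16HBE-ex14+HGF. Every 16HBE-ex14 array lay below every 16HBE-WT array, and the HGF-treated clone lay between them with 1 array inside the 16HBE-ex14 range. Without HGF, HK2 was 1.77-fold lower in 16HBE-ex14 (log2 difference -0.83, SE 0.13, limma adjusted p = 0.000458), and it stayed called in every alternative and with each array left out. With HGF the difference of -0.45 (adjusted p = 0.0212) was under the fold limit.

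PFKFB4 makes and breaks down fructose-2,6-bisphosphate, the activator of phosphofructokinase. It read -0.07, 0.32, 0.37 and 0.22 in 16HBE-WT against -0.80, -0.26, -0.94 and -0.62 in 16HBE-ex14 (chr3:48555454-48555513, hg19). With HGF it read -0.02, -0.13, 0.35 and 0.47 in 16HBE-WT+HGF against -0.10, -0.97, -0.66 and -0.67 in 16HBE-ex14+HGF. The genotypes did not overlap without HGF, whereas with HGF replicate 1 of the clone lay just above replicate 2 of 16HBE-WT+HGF. The fold differences were 1.82 (log2 -0.86, SE 0.20, adjusted p = 0.00713) and 1.71 (log2 -0.77, SE 0.20, adjusted p = 0.0125). With normexp background correction the second was -0.58 (adjusted p = 0.00291), under the fold limit. PFKFB3, its relative in many epithelial cells, gave 0.05 without HGF and 0.29 with HGF (adjusted p = 0.874 and 0.169).

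ALDOC, the brain-type aldolase, was a dim probe (chr17:26900423-26900482, hg19). It read -3.89, -4.26, -3.33 and -3.32 in 16HBE-WT and -2.71, -2.56, -3.11 and -2.68 in 16HBE-ex14. The genotypes did not overlap, though the gap was small beside the spread of the 16HBE-WT arrays, 1 of which was not well above background. The difference was 1.91-fold (log2 0.94, SE 0.20, adjusted p = 0.00481), but only 0.03 (adjusted p = 0.761) with normexp background correction. In the presence of HGF the levels were -3.67, -3.58, -3.80 and -3.19 in 16HBE-WT+HGF against -3.10, -3.39, -3.15 and -3.13 in 16HBE-ex14+HGF, which overlapped (adjusted p = 0.23).

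ENO2, the neuronal enolase, read -0.33, -0.07, 0.16 and -0.13 in 16HBE-WT and 0.54, 0.74, 0.25 and 0.76 in 16HBE-ex14 (chr12:7032482-7032541, hg19). With HGF it read -0.51, -0.11, 0.20 and 0.41 in 16HBE-WT+HGF and 0.94, 0.09, 0.64 and 0.69 in 16HBE-ex14+HGF. The clone was higher on each array without HGF, and the ranges overlapped with HGF. The first difference was 1.58-fold (log2 0.66, SE 0.21, adjusted p = 0.0402) and the second 0.59 (adjusted p = 0.0619). The call was lost with more arrays left out than any other of the 17. It was lost with normexp (0.52) and without a filter on dim probes (adjusted p = 0.0769). It was also lost when any 1 of 9 arrays was left out, namely 16HBE-WT replicate 1 (adjusted p = 0.11), 2 (0.0721) or 4 (0.0777), 16HBE-ex14 replicate 1 (0.0665), 2 (0.0972) or 4 (0.103), 16HBE-WT+HGF replicate 2 (0.0504) and 16HBE-ex14+HGF replicate 3 (0.0511) or 4 (0.0503).

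The 12 other tested glycolytic genes were not called in any comparison. Without HGF, 5 of them passed on adjusted p at fold changes under 1.5. PFKL, the liver-type phosphofructokinase, gave -0.48 (adjusted p = 0.0103), ENO1, the main enolase, -0.56 (0.00127), and PGK1, phosphoglycerate kinase, -0.36 (0.0392). On the higher side were TPI1, triosephosphate isomerase, at 0.41 (0.00175) and GAPDH, glyceraldehyde-3-phosphate dehydrogenase, at 0.23 (0.0494). ENO1 crossed the fold limit with quantile normalization (-0.60) and without 16HBE-ex14 replicate 3 (-0.63). The enolases thus parted, ENO1 toward lower and ENO2 toward higher levels in the clone. With HGF, PFKL (-0.43, adjusted p = 0.018), ENO1 (-0.42, 0.0076) and TPI1 (0.40, 0.0018) passed on adjusted p again, and GAPDH (0.21, 0.0715) and PGK1 (-0.18, 0.302) did not. The hexokinase HK1, the phosphofructokinases PFKM and PFKP, phosphoglucose isomerase GPI, phosphoglycerate mutase PGAM1, pyruvate kinase PKM and PFKFB3 lay between -0.16 and 0.28 without HGF and between -0.17 and 0.29 with HGF, with no adjusted p below 0.05.

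In the group of lactate, pyruvate and transport genes, 0 of 6 were called without HGF and 1, LDHA, with HGF. The median log2 difference was -0.13 and -0.06. LDHA, the lactate dehydrogenase subunit that favours lactate formation, read 6.75, 6.74, 7.01 and 6.94 in 16HBE-WT and 6.05, 6.17, 6.56 and 6.33 in 16HBE-ex14 (chr11:18428789-18428848, hg19). With HGF it read 6.44, 6.49, 7.0 and 7.06 in 16HBE-WT+HGF and 6.04, 5.98, 6.27 and 6.26 in 16HBE-ex14+HGF. Every array of the clone lay below every 16HBE-WT array of the same treatment.

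The LDHA difference was 1.52-fold with HGF (log2 -0.61, SE 0.16, adjusted p = 0.0122) and fell just short of the fold limit without HGF (-0.58, SE 0.16, adjusted p = 0.0174). The 2 values lay on either side of the limit and differed by far less than their standard errors. Without HGF, LDHA was called with quantile normalization (-0.66), with the mean over its probes (-0.68), on slide 1 alone (-0.64) and without 16HBE-WT replicate 1 (-0.62) or 2 (-0.63) or 16HBE-ex14 replicate 3 (-0.68) or 4 (-0.60). The call with HGF was lost with normexp (-0.52), scaling to the array median (-0.52, adjusted p = 0.0645) or to the E1A spike-in probes (-0.51, 0.034), and without 16HBE-WT+HGF replicate 3 (-0.52) or 4 (-0.51) or 16HBE-ex14+HGF replicate 1 (-0.58) or 2 (-0.56). A second LDHA probe, annotated to chromosome 9 rather than 11, was lower without HGF (-0.77, adjusted p = 0.00108) and with HGF (-0.68, adjusted p = 0.00217). LDHB, the subunit that favours pyruvate, lay on the other side, at 0.51 (adjusted p = 0.0199) and 0.48 (0.0236), under the fold limit in both. It crossed the limit without HGF after scaling to the spike-in probes (0.68) or the array median (0.65) and without 16HBE-ex14 replicate 2 (0.60), and with HGF without 16HBE-WT+HGF replicate 3 (0.60).

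PDK1, the kinase that closes pyruvate dehydrogenase and so keeps pyruvate out of mitochondria, gave -0.40 without HGF (adjusted p = 0.0282) and -0.35 with HGF (0.0529). The glucose transporter SLC2A1 gave -0.14 and -0.10, SLC2A3 0.35 and 0.27, and the lactate exporter SLC16A3 -0.12 and -0.02, none of them past the test. The signs of SLC2A1 and SLC16A3 without HGF turned under other scalings, with ranges of -0.21 to 0.03 and -0.18 to 0.05.

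The stress targets of HIF held the largest difference of the set without HGF, and 4 of 6 tested genes were called, ADM, NDRG1 and ANKRD37 lower and DDIT4 higher. With HGF, ADM and NDRG1 were called lower. The median log2 difference of the 6 genes was -0.42 without HGF and -0.10 with HGF.

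NDRG1 is a stress-responsive gene linked to growth arrest and differentiation. Its probe (chr8:134249719-134249778, hg19) read 3.30, 3.92, 3.85 and 3.64 in 16HBE-WT and 1.96, 2.55, 2.38 and 1.75 in 16HBE-ex14. With HGF it read 3.4, 3.30, 4.17 and 3.97 in 16HBE-WT+HGF and 3.02, 2.52, 2.57 and 2.79 in 16HBE-ex14+HGF. The genotypes were apart in both treatments, by more without HGF. NDRG1 was 2.86-fold lower without HGF (log2 -1.52, SE 0.22, adjusted p = 0.000332) and 1.98-fold lower with HGF (-0.98, SE 0.22, adjusted p = 0.00611).

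ADM encodes adrenomedullin, a secreted vasodilator peptide. It read 3.46, 3.70, 3.65 and 3.51 in 16HBE-WT and 2.77, 3.06, 2.82 and 2.80 in 16HBE-ex14 (chr11:10328780-10328839, hg19). With HGF the levels were 3.35, 3.44, 3.57 and 3.55 in 16HBE-WT+HGF and 2.88, 2.76, 2.43 and 2.71 in 16HBE-ex14+HGF. All 8 arrays of the clone lay below all 8 arrays of 16HBE-WT. The fold differences were 1.64 (log2 -0.71, SE 0.11, adjusted p = 0.000406) and 1.72 (-0.78, SE 0.11, adjusted p = 0.00017). Without HGF the value was -0.58 (adjusted p = 0.0148) after scaling to the array median and -0.54 (0.0136) after scaling to the spike-in probes, under the fold limit.

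ANKRD37, an ankyrin repeat protein, read 1.11, 1.48, 1.38 and 1.05 in 16HBE-WT, and 0.75, 0.88, 0.69 and 0.26 in 16HBE-ex14 (chr4:186321293-186321352, hg19). In the HGF-treated groups it read 1.54, 1.11, 1.74 and 1.32 in 16HBE-WT+HGF and 1.55, 1.27, 0.92 and 1.38 in 16HBE-ex14+HGF. Only the untreated clone stood apart, and the treated groups overlapped. The difference without HGF was 1.52-fold (log2 -0.61, SE 0.18, adjusted p = 0.0259), and that with HGF was -0.15 (adjusted p = 0.621). The first was lost with normexp (-0.50), scaling to the array median (adjusted p = 0.0781) or the spike-in probes (0.116), no filter on dim probes (0.0537), and without 16HBE-WT replicate 2 (0.0763) or 3 (0.0662) or 16HBE-ex14 replicate 4 (0.084).

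DDIT4, also called REDD1, is a stress-induced inhibitor of mTORC1. It read 4.64, 4.69, 4.32 and 4.94 in 16HBE-WT and 5.58, 5.31, 5.28 and 5.75 in 16HBE-ex14 (chr10:74035363-74035422, hg19). In the HGF-treated groups it read 4.67, 5.07, 4.99 and 4.80 in 16HBE-WT+HGF and 5.26, 5.10, 5.59 and 5.62 in 16HBE-ex14+HGF. Here the clone was the higher one on each array of both treatments. The difference was 1.78-fold without HGF (log2 0.83, SE 0.16, adjusted p = 0.00228), and with HGF it was 0.51 (adjusted p = 0.0367), under the fold limit. With HGF it crossed the limit with normexp (0.59), with scaling to the spike-in probes (0.61) and without 16HBE-ex14+HGF replicate 2 (0.61).

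BNIP3 and BNIP3L, receptors of mitophagy, were not called. BNIP3 gave -0.23 without HGF (adjusted p = 0.221) and -0.06 with HGF (0.797), while BNIP3L gave 0.26 (0.179) and 0.48 (0.0114). A second BNIP3L probe gave -0.20 without HGF (adjusted p = 0.375), the other sign, and 0.145 with HGF. The stress targets thus held genes on both sides, and the count of lower genes did not extend to the mitophagy receptors.

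Of the 5 tested hydroxylases and demethylase, 1, EGLN3, was called, in both genotype comparisons and in the same direction. EGLN3 is the prolyl hydroxylase whose own transcript is raised by HIF. Its probe was dim (chr14:34393422-34393481, hg19). It read -2.46, -2.42, -2.08 and -2.56 in 16HBE-WT against -2.93, -3.72, -3.65 and -3.55 in 16HBE-ex14. With HGF it read -2.96, -2.66, -3.24 and -2.72 in 16HBE-WT+HGF against -5.40, -5.03, -4.97 and -4.41 in 16HBE-ex14+HGF. The 4 arrays of 16HBE-ex14+HGF were not well above background and lay below all 12 others. The 16HBE-ex14 arrays in turn lay below the 16HBE-WT arrays.

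EGLN3 was 2.11-fold lower in 16HBE-ex14 without HGF (log2 -1.08, SE 0.22, adjusted p = 0.0029). With HGF it was at least 3.37-fold lower, a bound set by the lowest signal well above background, with a measured difference of -2.06 (SE 0.22, adjusted p = 1.65e-05). With normexp, which adds an offset to all signals, the differences were -0.49 (adjusted p = 0.000321) and -0.58 (5.77e-05), under the fold limit. A second EGLN3 probe for another transcript, also dim, gave -0.23 and 0.49 in the same comparisons and was not called. The value averaged over both probes was -0.65 (adjusted p = 0.0518) without HGF.

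EGLN1, the main oxygen sensor of the family, gave -0.21 without HGF (adjusted p = 0.209) and -0.13 with HGF (0.454). KDM3A, a histone H3K9 demethylase induced by HIF, gave -0.50 (0.0146) and -0.29 (0.145). The collagen prolyl hydroxylase subunits parted without HGF, P4HA1 at 0.16 (0.454) and P4HA2 at -0.46 (0.0147). Both other P4HA2 probes were called lower without HGF, at -0.65 (adjusted p = 0.00088) and -0.87 (0.00105), so the P4HA2 call depends on which probe stands for the gene. With HGF the P4HA2 difference was 0.02 (0.923), and its sign turned under 1 of the other scalings.

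HIF1A, the oxygen-regulated alpha subunit, was the only member called higher in both genotype comparisons. It read 1.5, 1.56, 1.54 and 1.7 in 16HBE-WT and 2.36, 2.28, 2.52 and 2.22 in 16HBE-ex14 (chr14:62214845-62214904, hg19). With HGF it read 1.97, 1.86, 1.67 and 1.69 in 16HBE-WT+HGF and 2.73, 2.80, 2.77 and 2.84 in 16HBE-ex14+HGF. The 4 groups formed an order from 16HBE-WT to 16HBE-ex14+HGF, with the genotypes apart in both treatments and 16HBE-WT and 16HBE-WT+HGF overlapping.

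The HIF1A transcript was 1.71-fold higher in 16HBE-ex14 without HGF (log2 0.77, SE 0.09, adjusted p = 6.56e-05) and 1.99-fold higher with HGF (0.99, SE 0.09, adjusted p = 6.56e-06). Its second probe gave 0.57 (adjusted p = 0.00967), under the fold limit, and 0.92 (0.000278), past it. EPAS1, the other alpha subunit, lay on the lower side with HGF, at -0.41 (adjusted p = 0.0291), and gave -0.06 (0.819) without HGF, where its sign turned under other scalings (-0.14 to 0.12). HIF1A was higher while NDRG1, ADM, EGLN3 and PFKFB4, each a known HIF target, were lower on the same arrays. Other targets went with HIF1A, among them DDIT4 (0.83 without HGF and 0.51 with HGF). Of the 6 tested stress targets, 4 were lower and 2 higher in each genotype comparison, so the targets had no common direction.

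**Figure D2:**
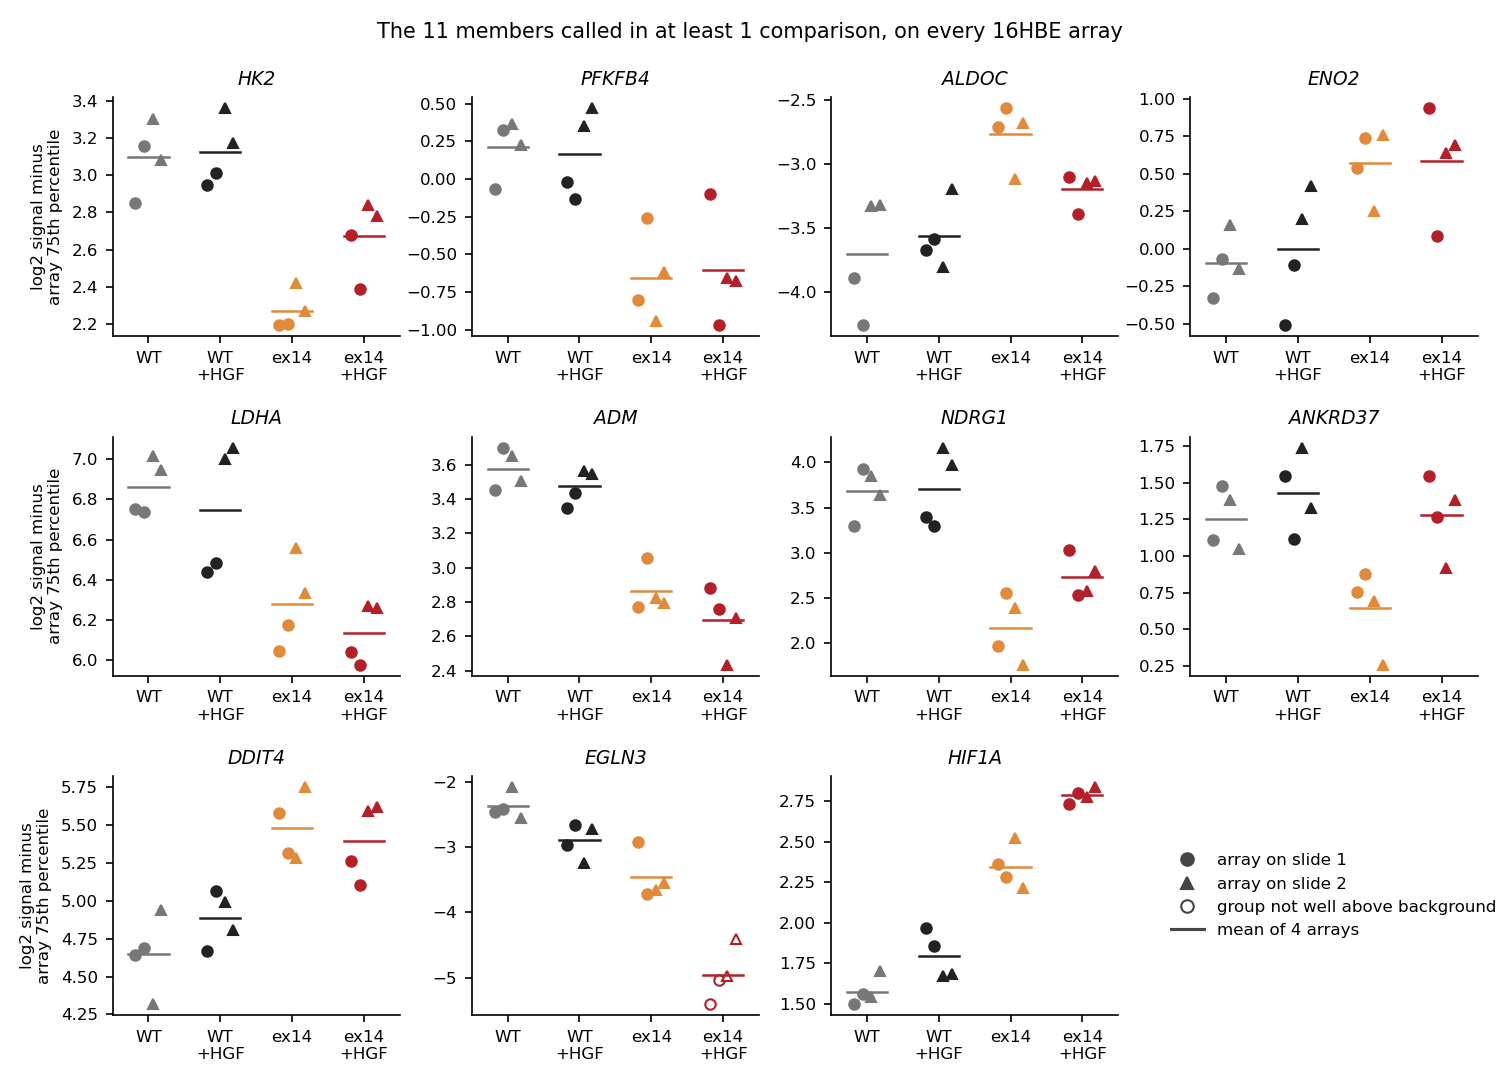
Level of the 11 called genes on every array (vertical axis, log2 signal relative to the 75th percentile of the array), with circles for slide 1, triangles for slide 2, open symbols where no array of the group was well above background and a line at the group mean. HIF1A is higher and EGLN3 lower in both 16HBE-ex14 groups, and the EGLN3 arrays of 16HBE-ex14+HGF lie at -5.40 to -4.41.

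The 250 bases before the start of the transcript were searched for the core letters bound by HIF, ACGTG or GCGTG, on either strand, in RefSeq promoters (GRCh38.p14). These letters also lie within the E-box CACGTG, which other basic helix-loop-helix factors bind. 35 members had a promoter in the table and 29 of them, 82.9%, had at least 1 match, against 47.4% of 27305 genes with a promoter. The members had more promoters per gene, and of single promoters 60.3% of 63 had a match, against 43.2% of 35116. Of the called members with a promoter, 9 of 10 had a match (90%), and of the tested members not called 17 of 22 had one (77.3%). NDRG1, BNIP3L and SLC2A3 had no promoter in the table. These shares rest on few genes and were not tested.

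Shown are 5 promoters, those of the 4 other members called in both genotype comparisons and that of LDHA, called with HGF, whose matches include whole E-boxes. They are written 5′ to 3′ on the strand of the gene with the matches in capitals. EGLN3 is at chr14:33951075-33951324 on the minus strand, ADM at chr11:10304823-10305072 on the plus strand, PFKFB4 at chr3:48556804-48557053 on the minus strand, LDHA at chr11:18394313-18394562 on the plus strand and HIF1A at chr14:61695263-61695512 on the plus strand. LDHA and HIF1A each have 2 promoters in the table, of which 1 is shown.
EGLN3: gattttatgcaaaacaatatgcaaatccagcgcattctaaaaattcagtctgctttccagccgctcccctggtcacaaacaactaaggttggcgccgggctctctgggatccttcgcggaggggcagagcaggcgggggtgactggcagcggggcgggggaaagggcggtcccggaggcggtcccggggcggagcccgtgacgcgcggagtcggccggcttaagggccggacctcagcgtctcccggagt
ADM: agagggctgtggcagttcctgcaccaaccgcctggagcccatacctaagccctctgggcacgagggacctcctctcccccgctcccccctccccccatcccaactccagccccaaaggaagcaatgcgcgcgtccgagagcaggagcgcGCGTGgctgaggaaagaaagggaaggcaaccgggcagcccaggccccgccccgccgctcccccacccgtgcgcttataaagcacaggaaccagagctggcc
PFKFB4: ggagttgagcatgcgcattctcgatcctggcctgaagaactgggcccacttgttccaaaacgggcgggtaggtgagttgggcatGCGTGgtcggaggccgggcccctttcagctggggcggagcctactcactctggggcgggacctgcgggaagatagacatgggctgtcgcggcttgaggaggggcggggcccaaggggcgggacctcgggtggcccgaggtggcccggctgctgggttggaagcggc
LDHA: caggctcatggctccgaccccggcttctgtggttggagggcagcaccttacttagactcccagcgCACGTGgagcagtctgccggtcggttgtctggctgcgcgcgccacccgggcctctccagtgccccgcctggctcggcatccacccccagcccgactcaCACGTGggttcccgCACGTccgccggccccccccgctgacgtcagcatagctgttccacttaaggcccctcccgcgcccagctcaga
HIF1A: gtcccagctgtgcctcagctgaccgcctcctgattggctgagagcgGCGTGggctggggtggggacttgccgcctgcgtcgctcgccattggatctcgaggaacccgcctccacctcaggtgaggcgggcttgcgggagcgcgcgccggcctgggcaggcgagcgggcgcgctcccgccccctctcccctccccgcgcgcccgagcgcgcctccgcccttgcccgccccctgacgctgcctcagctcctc

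EGLN3 had 0 matches in this window, which says only that the letters are not in these 250 bases. ADM, PFKFB4 and HIF1A had 1 match each, GCGTG in all 3. LDHA had 3, of which both CACGTG matches are whole E-boxes and the third, CACGT, is ACGTG read on the other strand. EGLN3 and ADM were both lower in the clone, in both treatments, with 0 and 1 match. HIF1A, with 1 match, was higher.

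HGF gave no called member in 16HBE-WT, 0 of 35, as it gave 0% of all genes. 2 members had an unadjusted p below 0.05, and 1681 of 34604 probes had one. The smallest adjusted p of a member was 0.982, for EGLN3. HIF1A gave 0.22 (adjusted p = 0.984) and HK2 0.02 (adjusted p = 1). The median of the members was 0.03 and that of all genes 0.04.

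In 16HBE-ex14, HGF changed 1 member, EGLN3, which is 2.86% of the set against 2.1% of all genes. On its brightest probe it fell, at least 2.28-fold by the bound set by the lowest signal well above background. Of all genes 0.967% were called lower. The measured log2 difference was -1.49 (SE 0.22, adjusted p = 0.00217), from arrays well above background in 16HBE-ex14 to none in 16HBE-ex14+HGF. The call was lost with normexp (-0.22, adjusted p = 0.23), where the fall was smaller than that bound. It was also lost with the mean over both probes (-0.28, adjusted p = 0.627). The second EGLN3 probe, for another transcript and also dim, had the other sign (0.93, adjusted p = 0.404) and was not called. The size of the fall is therefore uncertain.

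By adjusted p alone, 3 of the 35 tested members passed, where 3.04% of all genes did. HIF1A gave 0.44 (adjusted p = 0.0196) and P4HA2 0.54 (0.0256), both under the fold limit. P4HA2 became a call without 16HBE-ex14 replicate 3 (0.61, adjusted p = 0.0102). 7 of the 35 members had no overlap between the arrays with and without HGF, and 8.99% of all genes had none. Among them were SLC16A3 (0.20, adjusted p = 0.225), BNIP3 (0.32, 0.213), EPAS1 (-0.40, 0.114) and ANKRD37, whose difference of 0.63 was above the fold limit with an adjusted p of 0.0746. ANKRD37 was called where only probes well above background on all 16 arrays were tested (adjusted p = 0.0418). HK2 (0.40, 0.129) and NDRG1 (0.57, 0.249) gave positive values too. The genotype difference of HK2, NDRG1 and ANKRD37 was smaller with HGF than without, a change that did not pass the test of the difference of responses.

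The difference of the HGF responses between the genotypes was tested directly, and 0 of 35 members and 0% of all genes were called. 2 members, and 1586 probes of 34604, had an unadjusted p below 0.05. For EGLN3 the response differed by -0.98 (adjusted p = 0.774) and for P4HA2 by 0.48 (0.912). No member was shown to respond differently to HGF in the 2 genotypes.

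The mean level of the 35 genes, a score with no test here, was 3.36 ± 0.07 for 16HBE-WT, 3.37 ± 0.10 for 16HBE-WT+HGF, 3.23 ± 0.05 for 16HBE-ex14 and 3.29 ± 0.06 for 16HBE-ex14+HGF (SD, n = 4). The clone was lower by a log2 difference of -0.12 without HGF and -0.09 with HGF, but these turned to 0.02 and 0.01 after scaling to the array median and to 0.05 and 0.01 after scaling to the spike-in probes. The set as a whole had no direction that held across the scalings. The glycolytic enzymes gave -0.03 and -0.01 and the lactate and transport genes -0.06 and -0.05, and both groups also turned sign under those scalings.

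The other groups kept their direction under all 5 scalings in the genotype comparisons. The stress targets went from 3.56 ± 0.12 in 16HBE-WT to 3.23 ± 0.09 in 16HBE-ex14, a difference of -0.33 that ran from -0.39 to -0.16 over the scalings. With HGF it was -0.16 (-0.22 to -0.07). NDRG1 had the largest difference of the 6 genes in both comparisons (-1.52 and -0.98) and weighs most in these means. In each comparison 4 of the 6 genes were lower and 2 higher, with medians of -0.42 and -0.10. The hydroxylases and demethylase went from 0.82 ± 0.08 to 0.40 ± 0.13, a difference of -0.42 (-0.43 to -0.24), and with HGF it was -0.43 (-0.45 to -0.09). The mean with HGF rests on EGLN3, since the median of the 5 genes was -0.13 and 2 of them were above 0. The HIF alpha subunits went from 3.27 ± 0.13 to 3.63 ± 0.10, a difference of 0.36 (0.30 to 0.53), and with HGF it was 0.29 (0.22 to 0.39). These means rest on HIF1A. EPAS1 lay on the other side with HGF (-0.41), and without HGF it was near 0 (-0.06) with a sign that turned under other scalings.

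**Figure D3:**
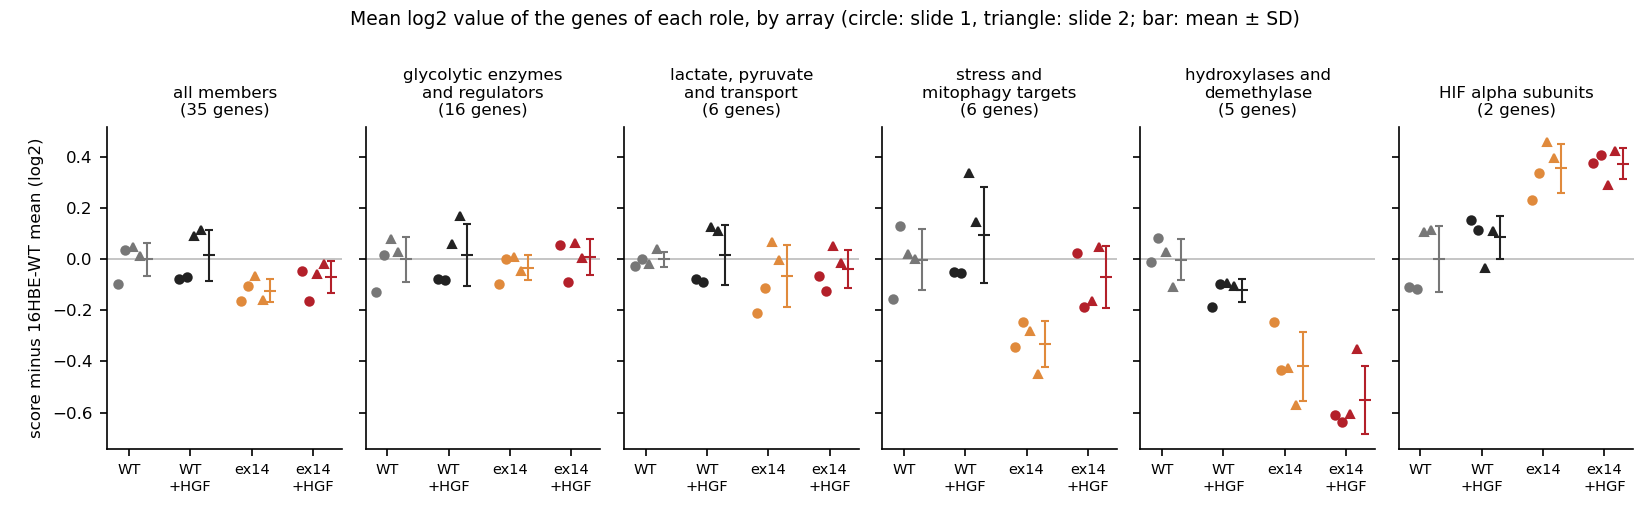
Mean level of each role group on every array, minus its mean in 16HBE-WT (vertical axis, log2), with mean and SD of the 4 arrays of a group. The glycolytic and lactate groups stay near 0 in all 4 groups. The stress targets and hydroxylases lie lower in 16HBE-ex14. The mean of HIF1A and EPAS1 lies higher there and rests on HIF1A.

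Each slide held 2 arrays of every group, so each comparison could also be made within a slide. The sign was the same on both slides for 32 of 35 members in the genotype comparison without HGF, 30 with HGF, 26 for HGF in 16HBE-ex14 and 17 for HGF in 16HBE-WT. The share of all genes with the same sign on both slides is not given here, so these counts are not a result about the members. All 17 called differences had the same sign on both slides. The calls were made on both slides together, so this agreement follows largely from the calling and is no replication. On slide 1 alone 5 members were called without HGF and 2 with HGF, and on slide 2 alone 3 and 6, with 2 arrays a group.

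**Figure D4:**
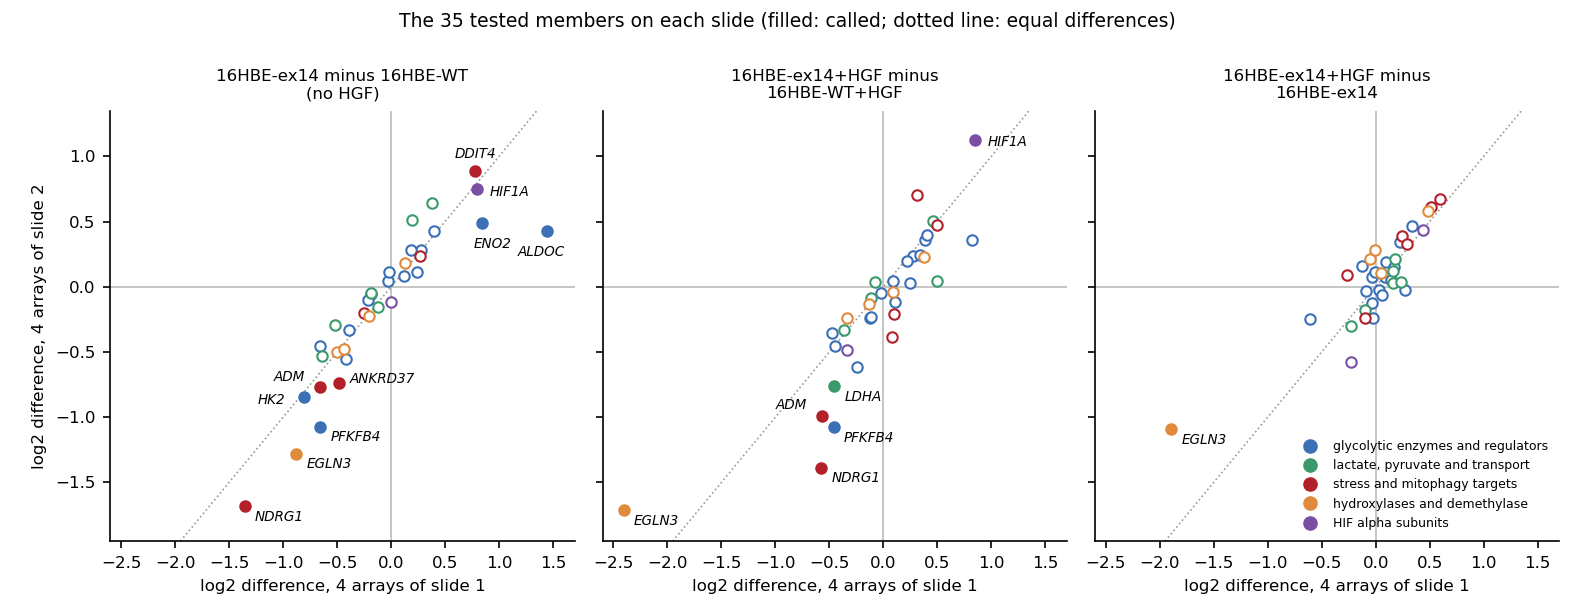
Log2 difference of the 35 members on slide 1 (horizontal axis) against slide 2 (vertical axis) in 3 comparisons, with called members named. The called members lie in the quadrants where both slides have the same sign, in all 10, 6 and 1 cases. They were called on both slides together, which largely fixes this agreement.

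The members lie on many chromosomes, and 5 of them, ENO2, TPI1, GAPDH, LDHB and SLC2A3, lie on the short arm of chromosome 12 (the first 35 Mb, hg19). All 5 were higher in the clone by the sign of the difference, from 0.23 to 0.66 without HGF and from 0.21 to 0.59 with HGF. ENO2 alone was called, without HGF, and none of them with HGF. Under 1 of the scalings SLC2A3 turned sign with HGF (-0.02). The other 323 tested genes of that arm had 67.8% of differences above 0 without HGF and 67.5% with HGF, with medians of 0.18 and 0.19, and 45 and 47 of them were called higher against 5 and 8 lower. The members on this arm had the sign that most genes of the arm had. Among neighbours within 2 Mb, the medians for ENO2, TPI1, GAPDH and SLC2A3 were 0.29 to 0.31 without HGF and 0.28 to 0.29 with HGF. The 17 neighbours of LDHB had medians of -0.08 and -0.05, on the other side from LDHB. The copy number of the arm was not measured. Of the lower members, ADM and LDHA both lie on chromosome 11, and NDRG1 lies on 8, EGLN3 on 14, PFKFB4 on 3, HK2 on 2 and ANKRD37 on 4. Without and with HGF, their neighbours had negative medians for LDHA (-0.21 and -0.15), HK2 (-0.16 and -0.18), EGLN3 (-0.17 and -0.065) and ANKRD37 (-0.02 and -0.06). The medians were positive for ADM (0.04 and 0.09), NDRG1 (0.10 and 0.15) and PFKFB4 (0.025 and 0.04). Of the called higher members off 12p, DDIT4 on chromosome 10 had 70 neighbours with medians of 0.26 and 0.31. The neighbours of ALDOC on 17 and HIF1A on 14 had medians between -0.08 and 0.07.

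Genes of the same and neighbouring pathways were counted from lists of names in the same way. Over all genes 9.26% were called without HGF, 10.7% with HGF and 2.1% for HGF in 16HBE-ex14. The counts of these lists were not tested against those shares, so a named gene is not a result about its list. Of 42 other HIF target genes 41 were tested. Without HGF, 2 were called higher, RORA (1.25, adjusted p = 0.0103, with 1 of 4 16HBE-WT arrays well above background, so that its size is uncertain) and NOXA1 (0.74, 0.00179), and 3 lower, the collagen lysyl hydroxylases PLOD1 (-0.78, 0.000748) and PLOD2 (-1.20, 1.53e-05) and the transferrin receptor TFRC (-0.81, 4.39e-05). With HGF, 3 were called higher and 4 lower, among them PLOD2 (-1.16, 1.75e-05), LOXL2 (-1.08, 0.000196), TFRC (-0.70, 0.00012), ANGPTL4 (1.51, 0.000605), NOXA1 (0.71, 0.00209) and P4HB (0.62, 0.00126). The medians of this list were -0.02 and -0.08, and its genes were found on both sides as the members were.

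HGF in 16HBE-ex14 changed 5 of these 41 targets, where 2.1% of all genes were called. ANGPTL4, a secreted inhibitor of lipoprotein lipase, rose by 1.78 on the log2 scale (3.43-fold, adjusted p = 0.00184). MXI1 (-0.59, 0.027), EFNA1 (-0.71, 0.0267), LOXL2 (-0.84, 0.00885) and CITED2 (-0.86, 0.00205) fell. In 16HBE-WT, 0 of 41 were called, with a smallest adjusted p of 0.886.

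Of the 17 HIF partners and degradation genes, all tested, 3 were called in each genotype comparison. Of all genes 9.26% were called without HGF and 10.7% with HGF. ARNT2, an alternative partner of the alpha subunits, was lower (-1.72, adjusted p = 7.73e-07 without HGF and -0.79, 0.000488 with HGF), and HGF raised it in 16HBE-ex14 (0.95, 0.00157). ELOB, a subunit of the VHL ligase, was higher (1.06, 7.84e-06 and 0.94, 1.66e-05), as was the coactivator CREBBP (0.87, 4.37e-05 and 0.80, 6.96e-05). Whether the genes next to these on their chromosomes moved with them was not tested.

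Among 32 genes of pyruvate entry and the citric acid cycle, the mitochondrial pyruvate carrier MPC1 (-0.70, adjusted p = 0.0037) and the kinase PDK3 (-0.89, 0.00217) were lower without HGF. With HGF, PDK3 (-1.06, 0.000513), pyruvate carboxylase PC (-0.73, 0.000462) and IDH3B (-0.61, 0.000446) were lower. Of the 11 genes of the pentose phosphate pathway, 1, the phosphogluconate dehydrogenase PGD, was lower in both (-0.65, 0.00703 and -0.71, 0.00363). Of 28 other isozymes of glycolysis and gluconeogenesis 19 were tested, and 1, the monocarboxylate transporter SLC16A7, was higher in both, at least 1.38-fold without HGF and at least 1.04-fold with HGF, with no 16HBE-WT array well above background. HGF called 0 genes of these 3 lists in either genotype.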

How the data were processed

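RNA of 16 samples of 16HBE cells, 4 in each of 4 groups, was hybridised to Agilent one-colour arrays of 60-base probes. The deposited files hold the scanner intensity of 62976 spots per array, which the authors extracted and background-corrected with Agilent Feature Extraction 10.7.3.1, with no scaling between arrays. The processed signal was taken as log2 minus the 75th percentile of the array. Control spots and spots marked as outliers were left out, spots of a probe were averaged, and 34604 of 58201 probes, those well above background on at least 4 of 16 arrays, were tested. The brightest tested probe stood for a gene. limma 3.58.1 (R 4.3.3, lmFit and eBayes) was fitted with 1 mean per group, and p-values were adjusted by Benjamini-Hochberg over all tested probes of a comparison. Calls needed an adjusted p below 0.05 and a fold change above 1.5, after the study's methods. A score is the mean level of the genes on an array. Figures were drawn with matplotlib 3.10.9.

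The members and the gene lists were chosen with earlier results of these data known. The named genes are the members called in any comparison, with their values on every array, the other members by counts and values of their group, and from every other list the called genes (beyond 6, the 3 largest on each side). One called gene of the other lists is not reported here. The number of arrays, 4 per group, limits the precision, and arrays give no counts. Alternatives were normexp background correction (offset 50), quantile, median and spike-in scaling, other filters on dim probes, outlier spots kept, a block, only the groups compared, each slide on its own, all probes averaged and each array left out. A fit with no fold change limit was added after seeing the data. The fit was tested on simulated data. Probe positions follow the array annotation (hg19), and which exon they lie in was not analysed here.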

Additional observations from a re-analysis of the deposited data

Results flagged for a closer look

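The ADM level of replicate 2 of 16HBE-ex14, 3.06, stood apart from the 3 other arrays of its group, the nearest of which read 2.82 and the farthest 2.77. It was found by setting the gap to the nearest array against the range of the group, over 48 groups of 4 arrays of the called genes and the score, and chance gives about 1 in 20 such cases. With this array left out and with every other array left out in turn, ADM without HGF stayed called, at log2 differences of -0.78 to -0.67.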

How the results depend on the processing

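The counts of called members were 10 without HGF, 6 with HGF and 1 for HGF in 16HBE-ex14. With normexp they were 6, 4 and 0. On slide 1 alone the 3 counts were 5, 2 and 0, and slide 2 alone gave 3 without HGF and 0 for HGF in 16HBE-ex14, with 2 arrays per group. The mean over the probes of a gene gave 0 for HGF in 16HBE-ex14. With no fold change limit, which passes more genes by construction, they were 20, 14 and 3. With each array left out they ran from 9 to 12, 5 to 7 and 1 to 2, where the 2 came without 16HBE-ex14 replicate 3. HGF in 16HBE-WT and the difference of responses gave 0 in every alternative.

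The score of the 35 genes moved with the scaling. After scaling to the array median it was 0.016 without HGF, 0.005 with HGF, -0.10 for HGF in 16HBE-WT and -0.111 for HGF in 16HBE-ex14. With the spike-in probes it was 0.049, 0.011, -0.074 for HGF in 16HBE-ex14 and -0.038 for the difference of responses, and with normexp the value with HGF was -0.001. With each array left out the scores ran from -0.15 to -0.11, from -0.12 to -0.05, from -0.02 to 0.05 (HGF in 16HBE-WT), from 0.03 to 0.08 (HGF in 16HBE-ex14) and from 0.01 to 0.07 (difference of responses). The median of all genes without HGF was -0.02, but 0.12 with the array median, 0.15 with the spike-in probes and -0.13 with normexp. With HGF it was 0.01, 0.10, 0.10 and -0.13, and for HGF in 16HBE-ex14 0.06, -0.10, -0.06 and 0.04. The share of called probes that were higher in the clone was 47.7% without HGF, against 71.5% with the array median, 76% with the spike-in probes and 59.1% with normexp, and 49.7% with HGF against 66%, 66.9% and 59.3%. For HGF in 16HBE-ex14 52.8% were higher, against 24.5% and 35.5%. The cause of these shifts was not tested.

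Arrays with the same replicate number deviated together only in part, with 24 correlations of 0.03 to 0.32 (median 0.20), 20 of them above 0.1, and nothing in the labels ties them to a shared day. With the replicate number (slide and row) as a block the counts were 10 without HGF, 6 with HGF, 1 for HGF in 16HBE-ex14 and 0 in the others. With the slide as a block they were 10, 7, 1 and 0. Dim probes (EGLN3, ALDOC) depend on the background correction, and their differences are the least certain in size.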
